A study of Mus musculus with 18 samples.

Results

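The 10 genes described here belong to the circadian clock and were followed in mouse hypothalamus: the period genes Per1, Per2 and Per3, the cryptochromes Cry1 and Cry2, the activator Clock, the nuclear receptors Nr1d1 and Nr1d2, and the PAR bZIP factors Dbp and Tef. They were chosen by name, and all 10 had a row among the 56980 features of the deposited table. All 10 also passed the filter on low counts and were among the 11835 genes tested.

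The hypothalamus was taken from 18 male mice of the strain C57BL/6JGpt, whose age is 7 months in the deposited table, with 6 mice in each of 3 groups. Diet-induced obese (DIO) mice had fat-rich food from an age of 6 weeks for 16 weeks or more, were gavaged with vehicle for 14 days to get used to handling, and then had 2 gavages a day for 29 days per the labels (28 days in the deposited table). The DIO vehicle group had the carrier alone, and the DIO TN-783 group had 50 mg/kg of TN-783, which inhibits NLRP3, a sensor protein of the inflammasome. Lean mice of the same sex and strain ate chow and were not dosed, so diet and dosing differ together between lean and DIO vehicle mice. Whether lean mice had the 14 days of vehicle gavage is not stated in the labels, so a difference in handling cannot be told apart from the others. The study asked what obesity changes in the hypothalamus and what the drug changes in obese mice. No time of day at which tissue was taken is given in the labels.

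The mammalian clock is a feedback loop of transcription. CLOCK pairs with BMAL1, the product of Arntl, and the pair binds E-box sequences to switch on the Per and Cry genes, whose proteins then return to the nucleus and repress that pair. In a second loop the REV-ERB receptors made from Nr1d1 and Nr1d2 repress Arntl, and DBP and TEF carry the rhythm to other genes through D-box sequences. The suprachiasmatic nucleus of the hypothalamus is the master pacemaker, while neurons and glia elsewhere in the tissue also run the loop, so the level of such a gene in 1 animal depends on the hour.

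Promoter sequences are shown because these elements tie the genes to one another. RefSeq promoter sequences (GRCm38.p6) were matched by symbol for 9 of the 10 genes, all but Per2. In the 250 bases before the most upstream start of each gene, both strands were searched for elements of the loop. The letters of the E-box were CACGTG. Those of the related E-prime box were CACGTT. On the opposite strand the latter reads AACGTG. The letters of the D-box were TTATGTAA and TTACGTAA. The stretches below run 5′ to 3′ on the strand of the gene and reach 20 bases to either side of the matches, which are in capitals.
Per1, E-box, chr11:69098763-69098808, plus strand: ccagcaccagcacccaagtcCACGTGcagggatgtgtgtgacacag
Per3, both D-boxes, chr4:151044796-151044890, minus strand: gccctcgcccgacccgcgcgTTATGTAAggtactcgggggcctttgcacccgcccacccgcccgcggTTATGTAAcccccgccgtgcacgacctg
Cry1, E-prime box and E-box, chr10:85185089-85185153, minus strand: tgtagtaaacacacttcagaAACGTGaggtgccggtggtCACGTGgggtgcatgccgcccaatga
Cry2, E-prime box, chr2:92434210-92434255, minus strand: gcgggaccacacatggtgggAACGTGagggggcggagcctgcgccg
Nr1d1, E-prime box, chr11:98775380-98775425, minus strand: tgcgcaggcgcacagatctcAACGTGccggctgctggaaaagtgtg
Tef, E-box, chr15:81802526-81802571, plus strand: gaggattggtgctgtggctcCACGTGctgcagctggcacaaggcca

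The E-box letters were in the windows of 3 of 9 genes (Per1, Cry1 and Tef), against 6.04% of the 27025 promoters in the table. The E-prime letters were in 3 of 9 (Cry1, Cry2 and Nr1d1), against 3.93% of all promoters. Per3 held TTATGTAA at 2 places, 205 to 198 and 158 to 151 bases before the start, and 0.862% of promoters held it at least once. TTACGTAA was in 0 of 9 windows and in 0.0999% of all promoters. The ROR elements TAGGTCA and TGGGTCA (2.25% and 3.22% of promoters), the cAMP element TGACGTCA (1.6%) and the glucocorticoid receptor motif TGTTCT (16.1%) were in 0 of 9 windows. The windows of Clock, Nr1d2 and Dbp held none of the letters searched. A match describes letters only, since neither binding nor chromatin was measured.

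The sum of estimated counts per library was 2070041 to 3695785 for lean, 1699712 to 2761474 for DIO vehicle and 1993528 to 3589795 for TN-783 mice. Scores of RNA integrity (RIN) were 9.4 to 10.0, 9.5 to 9.9 and 9.6 to 9.7. Lean replicate 6 stood apart from its group, at 43.6 on the first principal component of deviations from group means, with the other lean libraries between -20.6 and -1.87. Pituitary RNA was present in replicates 2 and 4 of the DIO vehicle group, with prolactin (Prl) at 1773 and 1273 CPM (counts scaled to library size) against at most 30.2 CPM in the other 16 libraries. Markers abundant enough to be tested were 12 of 12 for hypothalamus, 5 of 6 for striatum, 3 of 4 for thalamus, 5 of 10 for pituitary, 2 of 7 for cortex and hippocampus and 0 of 5 for choroid plexus. Summed striatal markers were at 95.5 to 121, 94.97 to 137 and 88.6 to 122 CPM. Thalamic ones were at 77.0 to 166, 68.6 to 192 and 87.0 to 114, and cortical ones at 56.7 to 86.4, 46.4 to 97.6 and 50.7 to 77.9. The cortical sum was mostly Prox1, with means of 63.3, 45.7 and 49.9 CPM in the 3 groups. Other cortical markers went the other way in DIO vehicle mice. From lean to DIO vehicle mice the means of Slc17a7 were 2.55 and 8.54 CPM, of Neurod6 2.64 and 5.71, and of Tbr1 2.14 and 4.46. Choroid plexus markers summed to 2.76 to 7.81 CPM in lean, 3.63 to 46.7 in DIO vehicle and 7.40 to 21.8 in TN-783 mice, and their part in the results was not tested. Of 15 markers of the suprachiasmatic nucleus 10 were tested, and Prok2, Nms, Grp, Vipr2 and Syt10, several of them defining for that nucleus, averaged at most 3.75 CPM in any group. The values therefore describe the whole piece of tissue, and fewer cells of a type and less RNA per cell cannot be told apart.

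In these mice 0 of the 10 clock genes passed an adjusted p of 0.05 in DIO vehicle against lean, in TN-783 against DIO vehicle or in TN-783 against lean (edgeR quasi-likelihood test with Benjamini-Hochberg adjustment over 11835 genes). Over all genes 0.00845%, 0% and 0% passed in the same comparisons. At an unadjusted p under 0.05, edgeR gave 1, 0 and 0 of the 10 genes, where 10.9%, 2.61% and 8.16% of all tested genes had one; the same shares are the background for the other lists below. The single gene was Per1 in DIO vehicle against lean mice. DESeq2 and limma-trend also gave 1, 0 and 0, and limma voom gave 1, 0 and 1, each of them Per1. The groups overlapped for all 10 genes in all 3 comparisons, whereas 0.397%, 0.0676% and 0.406% of tested genes had groups that did not overlap. The 3 comparisons share groups, and their values are set side by side below.

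**Figure D1:**
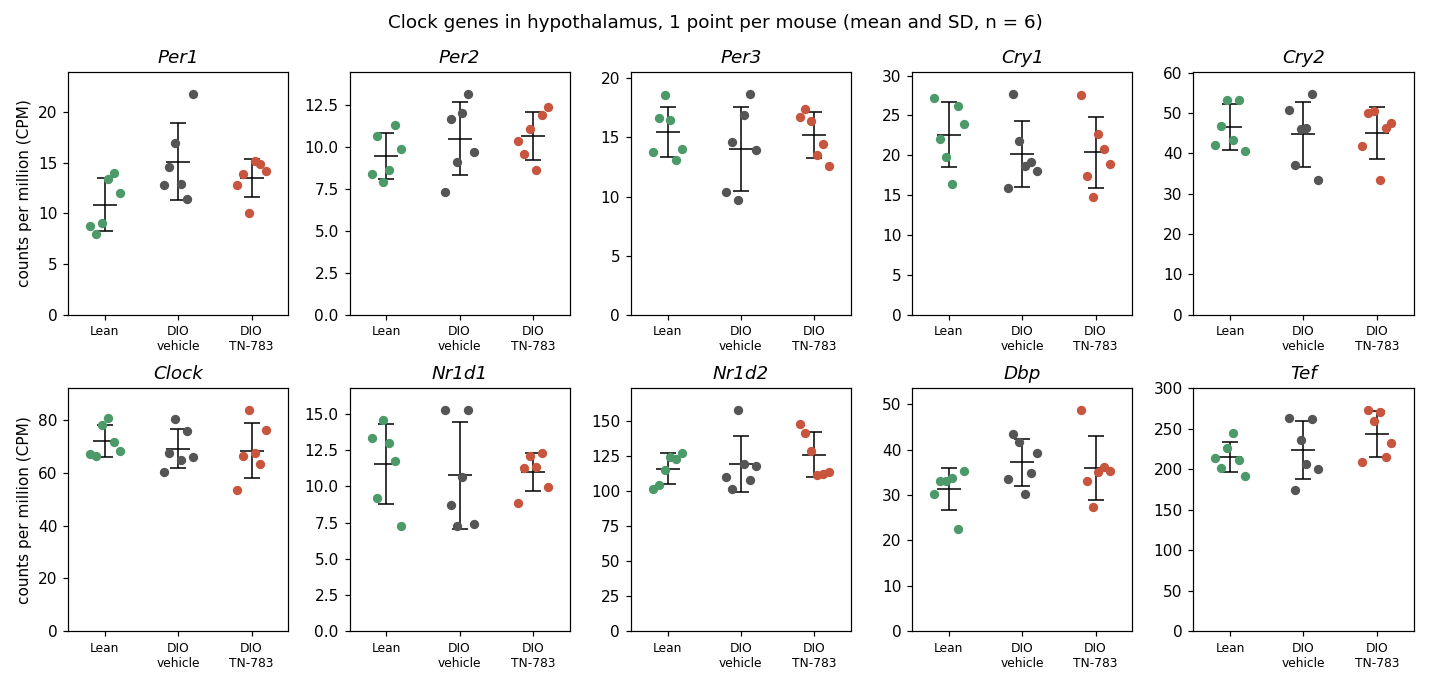
Level of each clock gene in CPM (vertical axes, from 0) in lean, DIO vehicle and DIO TN-783 hypothalamus, with 1 point per mouse and bars for the mean and SD (n = 6). The groups overlap in every panel, and Per1 shows the widest shift as a ratio, from a mean of 10.9 in lean to 15.1 CPM in DIO vehicle mice.

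**Figure D2:**
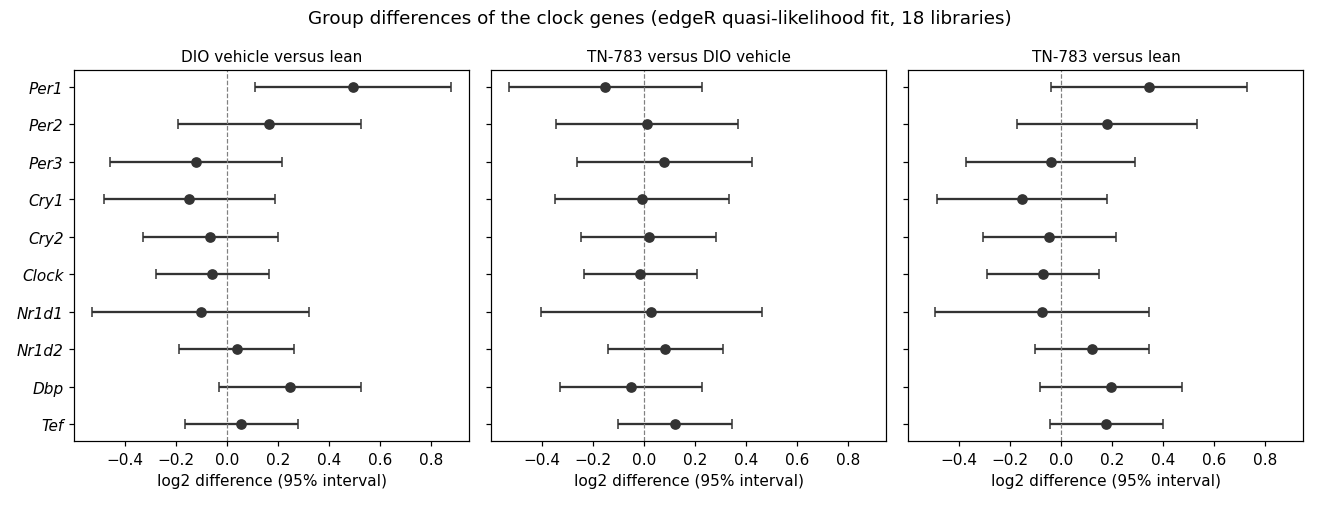
Log2 difference of each clock gene (horizontal axes) in the 3 comparisons from 1 edgeR fit of 18 libraries, with 95% intervals as bars. The interval of Per1 in DIO vehicle against lean mice, 0.11 to 0.88, is the only one of the 30 that leaves out 0.

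Per1 (ENSMUSG00000020893) encodes a repressor of the loop that light, cyclic AMP and glucocorticoids can also induce rapidly. In lean mice it was at 8.79, 7.94, 9.08, 13.4, 14.0 and 11.97 CPM in replicates 1 to 6. In DIO vehicle mice the 6 values were 12.8, 14.6, 16.9, 12.9, 11.5 and 21.8 CPM, and in TN-783 mice they were 12.8, 13.9, 10.0, 15.1, 14.9 and 14.2 CPM. Lean replicates 1 to 3 lay below every DIO mouse, while lean replicates 4 to 6 lay inside the DIO range. The means were 10.9 ± 2.59, 15.1 ± 3.78 and 13.5 ± 1.88 CPM (SD, n = 6 each). The log2 difference of DIO vehicle from lean mice was 0.49 (SE 0.19, 95% interval 0.11 to 0.88), a 1.41-fold difference with an unadjusted p of 0.0135 and an edgeR adjusted p of 0.359. Of 6 vehicle libraries, 6 lay above the lean median. With RIN in the fit the difference was 0.34 (SE 0.18, edgeR adjusted p = 0.799), and without vehicle replicate 6 it was 0.36. TN-783 mice differed from DIO vehicle mice by -0.15 (SE 0.18, 95% interval -0.53 to 0.23), and by -0.01 without vehicle replicate 6. TN-783 mice differed from lean mice by 0.34 (SE 0.19, unadjusted p = 0.0768, edgeR adjusted p = 0.627).

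Per2 (ENSMUSG00000055866), a period gene whose product binds the cryptochromes, had the lowest mean of the 10 genes and varied little. It spanned 7.90 to 11.3 CPM in lean, 7.33 to 13.2 in DIO vehicle and 8.63 to 12.4 in TN-783 mice, with medians of 9.27, 10.7 and 10.7. The log2 differences were 0.17 (SE 0.17) for DIO vehicle against lean, 0.01 (SE 0.17) for TN-783 against DIO vehicle and 0.18 (SE 0.17) for TN-783 against lean mice, with edgeR adjusted p-values of 0.726, 1 and 0.738. Per3 (ENSMUSG00000028957), which is not needed for the rhythm itself in mice, spanned 13.1 to 18.6, 9.68 to 18.7 and 12.6 to 17.4 CPM. Its log2 differences were -0.12 (SE 0.16), 0.08 (SE 0.17) and -0.04 (SE 0.16) in the same order. The 3 period genes did not share a direction in DIO vehicle against lean mice, with Per1 and Per2 above and Per3 below 0.

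The cryptochromes encode the strongest repressors of the CLOCK and BMAL1 pair. Cry1 (ENSMUSG00000020038) was at 22.6 ± 4.04 CPM in lean, 20.2 ± 4.13 in DIO vehicle and 20.4 ± 4.46 in TN-783 mice (SD, n = 6). In 5 of 6 mice of either DIO group it lay below the lean median of 23.0 CPM, and the log2 differences from lean mice were -0.15 (SE 0.16, edgeR adjusted p = 0.745) and -0.15 (SE 0.16, edgeR adjusted p = 0.765). Cry2 (ENSMUSG00000068742) was at 46.5 ± 5.61, 44.7 ± 8.08 and 44.97 ± 6.46 CPM. Its 95% interval for TN-783 against DIO vehicle mice ran from -0.25 to 0.28 on the log2 scale, a ratio between 0.843 and 1.22. Clock (ENSMUSG00000029238), the activator whose transcript cycles little in many tissues, was at 72.1 ± 6.07, 69.3 ± 7.45 and 68.6 ± 10.5 CPM. Its interval for DIO vehicle against lean mice, -0.28 to 0.16, was among the narrowest of the 10 genes, a ratio between 0.825 and 1.12.

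The REV-ERB genes are repressors of Arntl. Nr1d1 (ENSMUSG00000020889) was at 13.4, 9.19, 14.6, 12.98, 11.7 and 7.29 CPM in lean replicates 1 to 6. In DIO vehicle mice the values fell into a high pair at 15.3 and 15.3 CPM (replicates 1 and 5), replicate 4 at 10.7, and 3 mice between 7.26 and 8.74. In TN-783 mice all 6 values lay between 8.85 and 12.3 CPM. The log2 differences were -0.10 (SE 0.21), 0.03 (SE 0.21) and -0.07 (SE 0.20) for DIO vehicle against lean, TN-783 against DIO vehicle and TN-783 against lean mice, and the edgeR adjusted p-values were 0.872, 1 and 0.927. All 6 TN-783 values were below the lean median of 12.4 CPM, yet all of them lay inside the lean range. Nr1d2 (ENSMUSG00000021775) was more abundant than Nr1d1 in every library, at 116 ± 11.03, 119 ± 20.1 and 126 ± 16.0 CPM. DIO vehicle replicate 3 had the highest value, 158 CPM, and the other vehicle mice lay between 102 and 119. The log2 differences of Nr1d2 were 0.04 (SE 0.11), 0.08 (SE 0.11) and 0.12 (SE 0.11).

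Dbp and Tef are output factors, and Dbp is among the transcripts with the largest daily swing in many tissues. Dbp (ENSMUSG00000059824) was at 30.2, 33.0, 33.2, 33.7, 22.6 and 35.4 CPM in lean mice. The values were 33.6, 43.4, 41.7, 30.3, 34.8 and 39.4 CPM in DIO vehicle and 48.7, 33.1, 27.4, 35.1, 36.1 and 35.2 CPM in TN-783 mice. Lean mice were close together apart from replicate 5, and TN-783 replicate 1 was the highest of the 18 libraries. The log2 difference of DIO vehicle from lean mice was 0.25 (SE 0.14, 95% interval -0.03 to 0.52, edgeR adjusted p = 0.500), with 5 of 6 vehicle mice above the lean median. TN-783 mice differed by -0.05 (SE 0.14) from DIO vehicle and by 0.20 (SE 0.14) from lean mice. Tef (ENSMUSG00000022389), which was at 215 ± 18.7, 224 ± 35.9 and 243 ± 28.5 CPM, differed by 0.06 (SE 0.11), 0.12 (SE 0.11) and 0.18 (SE 0.11). Its edgeR adjusted p for TN-783 against lean mice was 0.636, and 5 of 6 TN-783 mice were above the lean median.

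Over the 10 genes the median log2 difference was -0.01 for DIO vehicle against lean, 0.02 for TN-783 against DIO vehicle and 0.04 for TN-783 against lean mice. The medians over all 11835 genes were 0.007, -0.005 and -0.004. Of the 10 genes 5, 4 and 5 were below 0, where 48.9%, 51.3% and 50.9% of all tested genes were. The median SE was 0.15 for the 10 genes in each comparison and 0.17 over all genes. The 95% intervals of 10 of 10 genes in TN-783 against DIO vehicle mice included 0, and their bounds lay between -0.53 and 0.46 on the log2 scale.

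Because each transcript gives reads from its 3′ end only, CPM was used as a level without division by length. By mean CPM over 18 mice the order was Tef, Nr1d2, Clock, Cry2, Dbp, Cry1, Per3, Per1, Nr1d1 and Per2, from 227 to 10.2 CPM. Tef exceeded Nr1d2, Nr1d2 exceeded Clock and Clock exceeded Cry2 in 18 of 18 libraries. Cry2 exceeded Dbp in 14, Dbp exceeded Cry1 in 17 and Cry1 exceeded Per3 in 15 of 18. Neighbours among the last 4 genes were not separated, since Per3 exceeded Per1 in 10, Per1 exceeded Nr1d1 in 12 and Nr1d1 exceeded Per2 in 10 of 18 libraries. Of the other pairs among these genes, Per3 exceeded Per2 in 18 and Nr1d1 in 17 of 18, and Per1 exceeded Per2 in 15 of 18.

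How far the mice spread around their group mean was compared with counting error, which is the coefficient of variation (CV) that the number of counts alone gives. For Tef the observed CV was 8.71% in lean, 16.1% in DIO vehicle and 11.7% in TN-783 mice, and counting alone gives 4.34%, 4.66% and 4.29%. For Per2 the observed CV was 14.3%, 20.6% and 13.3%, below the 20.7%, 21.5% and 20.5% that counting gives. A low-count gene such as Per2, with 12 to 47 counts a library, showed no spread beyond that of counting. Nr1d1 had the widest spread, 34.3% in DIO vehicle mice (21.2% from counting), against 24.1% in lean mice (18.7% from counting). In TN-783 mice its spread was 12.1%, below the 20.2% that counting gives. Each gene was also ranked by its residual SD among the 500 tested genes nearest to it in abundance. The percentile was 4.19 for Per2, 19.0 for Per3, 25.7 for Clock and 30.1 for Per1, and the other 6 genes lay between 41.3 and 50.7. Measured this way, 9 of the 10 clock genes were at or below the middle of genes of like abundance, and Nr1d1 was at 50.7.

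**Figure D3:**
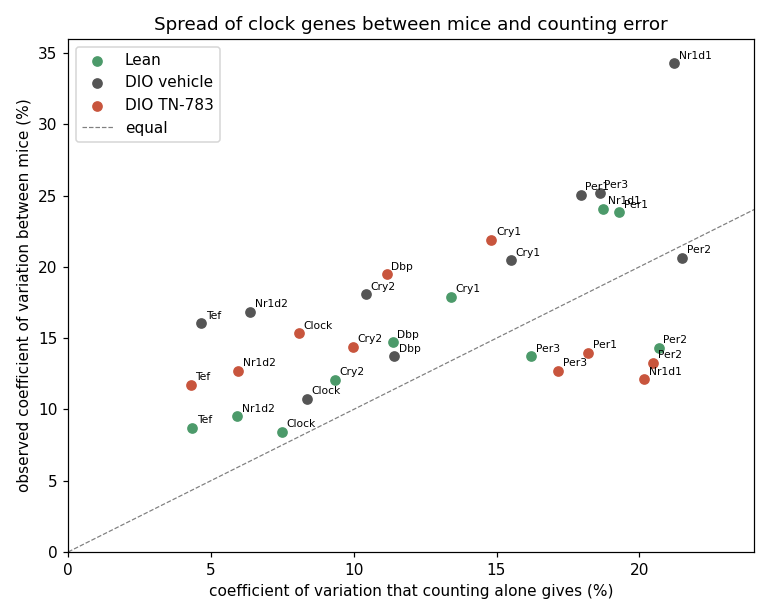
Observed CV between the 6 mice of a group (vertical axis, %) against the CV that counting alone gives (horizontal axis, %), with 1 point per clock gene and group and a dashed line of equality. Tef and Nr1d2 lie above the line in all 3 groups, Per2 lies below it in all 3, and Nr1d1 in DIO vehicle mice is highest at 34.3%.

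Whether the genes varied together from mouse to mouse was tested next. Deviations from group means in log2 CPM were correlated for the 45 pairs of genes across 18 mice, with permutation within groups and adjustment over 45 pairs. No pair passed: 0 of 45 had an adjusted p under 0.05, and 4 of 45 had an unadjusted p under 0.05. The median r was -0.005 (22 pairs above 0 and 23 below), and 2 of 45 pairs reached 0.6 in size, where 7.15% of pairs of all tested genes did. Nr1d1 and Tef had the highest r, 0.63 (permutation p = 0.0138, adjusted p = 0.311), with Spearman's rho at 0.61 (permutation p = 0.0148, adjusted p = 0.375). Without the 2 mice farthest from the median of Nr1d1, r was 0.74. It was 0.81 in lean, 0.66 in DIO vehicle and 0.48 in TN-783 mice, and 0.70 adjusted for RIN. Cry1 and Tef had the lowest r, -0.63 (permutation p = 0.00888, adjusted p = 0.311; rho = -0.57, permutation p = 0.0206, adjusted p = 0.375). Without the 2 mice farthest from the median of Cry1 it was -0.41.

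Of the 6 pairs within a gene family 1 was above 0 and 5 were below, and none passed. Per1 and Per2 had an r of -0.09, Nr1d1 and Nr1d2 one of -0.42, and Dbp and Tef one of -0.40. Per2 and Per3 were at 0.38, Per1 and Per3 at -0.39, and Cry1 and Cry2 at -0.39. The number of pairs passing was 0 in each of 7 other settings, among them ranks, adjustment for RIN and leaving out lean replicate 6.

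**Figure D4:**
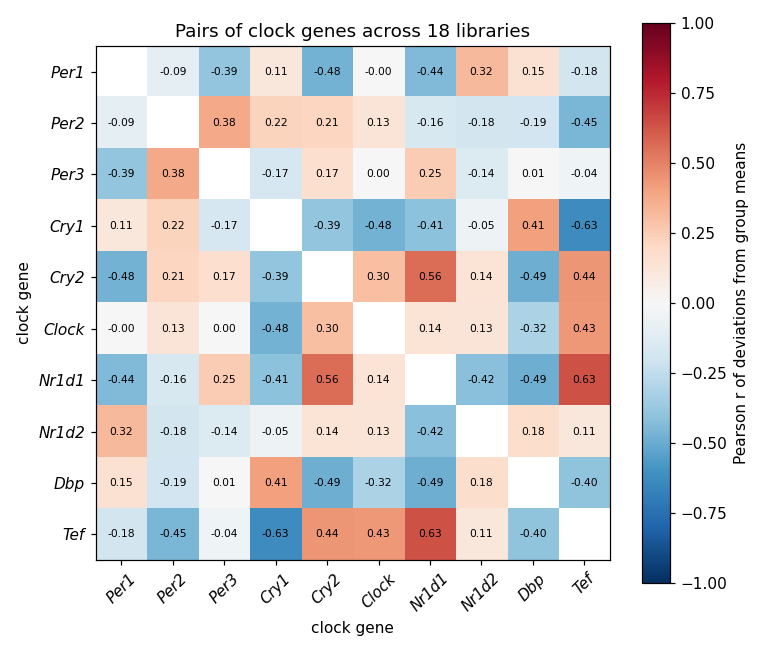
Pearson r of deviations from group means in log2 CPM for each pair of clock genes (both axes) across 18 libraries, with blue below and red above 0. The values run from -0.63 (Cry1 and Tef) to 0.63 (Nr1d1 and Tef), and none of the 45 pairs passed after adjustment.

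For each gene the tested genes with the highest r of deviations over 18 libraries were found, as a description without a test. Sult1a1, a sulfotransferase gene, was most like Per1 (r = 0.82), followed by Gpbp1 (0.76) and Ten1 (0.75). For Per2 they were Rabgap1 (0.77), Lancl2 (0.74) and Rit2 (0.74), and for Per3 2310039H08Rik (0.79), Rbm25 (0.76) and Alg6 (0.76). Cry1 was most like Rnf123 (0.84), Gm6136 (0.83) and Rdh10 (0.82), and Cry2 most like Clip2 (0.90), Zdhhc2 (0.89) and Vat1l (0.88). The genes most like Clock were Tusc1 (0.81), Megf9 (0.79) and Tcf20 (0.79). Nr1d1 was most like Gpr179 (0.89), Nr2c2 (0.86) and Dpp8 (0.85), and Nr1d2 most like Akip1 (0.80), Zfp758 (0.77) and Chchd2 (0.76). Those most like Dbp were Mrps28 (0.86) and Ndufb11 (0.84), both of mitochondrial complexes, and Rab28 (0.83). Tef was most like Irgq (0.88), Crk (0.88) and Desi1 (0.87). No member was among the 3 genes most like another member, and the best r with another member lay between 0.32 (Per1 with Nr1d2) and 0.63 (Nr1d1 with Tef). All libraries share the first principal component of deviations, which held 26.7% of the variance. Its r was -0.74 with Nr1d1, -0.69 with Cry2 and 0.56 with Dbp, and between -0.46 and 0.47 with the other 7 genes.

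For 3 of the 10 genes the origin of reads is uncertain. In the GENCODE vM21 annotation (GRCm38), Thra on the opposite strand covers the 3′ end of Nr1d1 and Sphk2 on the opposite strand that of Dbp. Camta1 spans Per3 on the same strand. The use of strand in counting is not given in the sources available here. Reads of Thra and Sphk2 can therefore not be told apart from those of Nr1d1 and Dbp. Because Camta1 lies on the same strand as Per3, strand could not tell their reads apart. Thra was at 942 CPM on average, and its r with Nr1d1 was 0.58 (permutation p = 0.0316, adjusted over 3 relations 0.0474; rho = 0.51, permutation p = 0.0560, adjusted p = 0.0840), or 0.42 without the 2 farthest libraries. Within lean, DIO vehicle and TN-783 mice it was 0.58, 0.67 and 0.43. Sphk2 was at 26.4 CPM, and its r with Dbp was -0.62 (permutation p = 0.0134, adjusted p = 0.0403; rho = -0.48, permutation p = 0.0542, adjusted p = 0.0840). It was -0.21 without the 2 farthest libraries, and -0.86 in lean, -0.85 in DIO vehicle and 0.04 in TN-783 mice. Camta1 had an r of -0.13 with Per3 (permutation p = 0.669, adjusted p = 0.669; rho = -0.11, permutation p = 0.708, adjusted p = 0.708), or -0.19 without the 2 farthest libraries and 0.39, -0.20 and -0.55 within the 3 groups.

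Of the other transcription factors of the clock, 12 of the list had a row, 9 were tested, and edgeR called 0 of 9 in each comparison. At an unadjusted p under 0.05 there were 0, 0 and 1 of 9. That one was Arntl, which encodes BMAL1, at 25.4 ± 4.77 CPM in lean, 23.8 ± 4.19 in DIO vehicle and 18.9 ± 5.42 in TN-783 mice (SD, n = 6). TN-783 mice differed from lean mice by -0.41 (SE 0.17, unadjusted p = 0.0253, edgeR adjusted p = 0.611) and from DIO vehicle mice by -0.32 (SE 0.18, edgeR adjusted p = 1), and 1 of 6 TN-783 mice lay above the lean median. Npas2, which can stand in for CLOCK, differed by 0.28 (SE 0.22) in DIO vehicle against lean and by -0.28 (SE 0.22) in TN-783 against DIO vehicle mice. The activating receptors Rora and Rorb differed by 0.06 (SE 0.10) and -0.02 (SE 0.09) in DIO vehicle against lean mice. The E-box repressors Bhlhe40, Bhlhe41 and Ciart differed by -0.07 (SE 0.15), 0.03 (SE 0.11) and 0.09 (SE 0.24). Nfil3, a repressor at D-boxes, differed by 0.25 (SE 0.30), and Hlf, the third PAR bZIP gene, by -0.02 (SE 0.09). The largest shift in TN-783 against DIO vehicle mice among these 8 genes other than Arntl was -0.28, that of Npas2.

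Among kinases and turnover factors of clock proteins 0 of 15 tested genes were called by edgeR in each comparison. In DIO vehicle against lean mice 5 of 15 had an unadjusted p under 0.05, against 10.9% of all genes, and 13 of 15 were below 0, against 48.9% of all genes. In TN-783 against DIO vehicle mice 0 of 15 did, and in TN-783 against lean mice 3 of 15 did. Usp2, a deubiquitinase gene that is itself a clock output in many tissues, was at 35.4 ± 4.48 CPM in lean, 49.2 ± 8.67 in DIO vehicle and 44.0 ± 6.98 in TN-783 mice. The log2 difference of Usp2 was 0.48 (SE 0.13, edgeR adjusted p = 0.236) in DIO vehicle against lean mice, with 6 of 6 above the lean median, and 0.32 (SE 0.13, edgeR adjusted p = 0.611) in TN-783 against lean mice. Btrc, the ubiquitin ligase subunit that marks PER proteins for breakdown, was at 16.4 ± 2.36, 11.5 ± 2.13 and 11.5 ± 1.83 CPM. It differed from lean mice by -0.50 (SE 0.16, edgeR adjusted p = 0.314) in DIO vehicle and by -0.53 (SE 0.16, edgeR adjusted p = 0.567) in TN-783 mice, below the lean median in 6 of 6 mice of each group. In TN-783 against DIO vehicle mice the kinase gene Gsk3a differed by 0.15 (SE 0.12, edgeR adjusted p = 1). Of 11 tested clock-controlled outputs, edgeR called 0 in each comparison, with 1, 0 and 1 at an unadjusted p under 0.05, each of them Usp2. Beside it, Lonrf3 had the smallest p in DIO vehicle against lean (-0.39, SE 0.26) and in TN-783 against DIO vehicle mice (0.34, SE 0.27), and Coq10b in TN-783 against lean mice (0.26, SE 0.18).

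Of the 10 tested markers of the suprachiasmatic nucleus edgeR called 0 in each comparison, with 2, 2 and 1 of 10 at an unadjusted p under 0.05, against 10.9%, 2.61% and 8.16% of all tested genes. Prokr2, the receptor for a pacemaker output peptide, was at 7.91 ± 1.18 CPM in lean, 4.29 ± 1.72 in DIO vehicle and 6.24 ± 1.33 in TN-783 mice. Its estimated counts summed to 121 over the 6 lean and 55.4 over the 6 DIO vehicle libraries, so few counts per mouse lie behind its values. The log2 difference of Prokr2 was -0.87 (SE 0.25, edgeR adjusted p = 0.269) in DIO vehicle against lean mice, and those 2 groups did not overlap, as was so for 0.397% of tested genes. Avp, a peptide gene of this nucleus and of other hypothalamic neurons, differed by -0.94 (SE 0.44, edgeR adjusted p = 0.459), and by -1.19 (SE 0.45, edgeR adjusted p = 0.611) in TN-783 against lean mice, where the developmental factor Lhx1 differed by -0.58 (SE 0.28, edgeR adjusted p = 0.616). In TN-783 against DIO vehicle mice Six6, another such factor, differed by -0.99 (SE 0.41) and Prokr2 by 0.56 (SE 0.26), both with an edgeR adjusted p of 1. Six6 spread widely in DIO vehicle mice, from 4.17 to 28.4 CPM, against 6.77 to 15.3 in lean and 2.46 to 9.35 in TN-783 mice. The part of the vehicle libraries with pituitary RNA in this difference was not tested. The summed level of all 15 markers was 477 to 841 CPM in lean, 459 to 654 in DIO vehicle and 395 to 604 in TN-783 mice. Most of this sum came from Zfhx3, Rora, Six3 and Avp, with lean means of 244, 167, 110 and 75.8 CPM. The lean mean of Vip was 5.28 CPM. Between Nr1d1 and the mean of the 10 tested markers, r of deviations was 0.63 over 18 mice (permutation p = 0.000920, adjusted over 40 relations 0.0368), and rho was 0.60 (permutation p = 0.00914, adjusted p = 0.197). It was 0.62 without the 2 farthest libraries and 0.93, 0.69 and 0.67 within lean, DIO vehicle and TN-783 mice. Adjusted for RIN it was 0.52, and adjusted for the first principal component 0.17. As a description without a test, r of Nr1d1 was 0.74 with the mean of the 12 hypothalamic markers, which share Avp with this list, and 0.71 with that of the 15 kinases and turnover factors. Of the 40 relations between the 10 clock genes and 4 list means, that of Nr1d1 with the suprachiasmatic markers was the only one with an adjusted p under 0.05, and by ranks there were 0. The other 3 lists were glucocorticoid-induced, immediate early and temperature-following genes. The mean of the last pools heat-shock genes with Rbm3, which cold induces, so its relations cannot be read as a test of temperature.

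Per1 was set beside glucocorticoid-induced genes because the hormone can induce it. Of 11 tested genes of that list, edgeR called 1 in DIO vehicle against lean mice: Sgk1, a kinase gene, rose from 26.2 ± 13.3 to 85.8 ± 14.6 CPM (log2 difference 1.75, SE 0.26, edgeR adjusted p = 0.0315). Sgk1 was the only gene called among all 11835 tested in that comparison. The list there had a median log2 difference of 0.63, against 0.007 over all genes. Of the 11 genes 10 were above 0 and 1 below, where 48.9% of all tested genes were below 0. At an unadjusted p under 0.05 edgeR gave 7, 0 and 4 of 11, against 10.9%, 2.61% and 8.16% of all tested genes. In TN-783 against DIO vehicle mice 4 of 11 were above 0 and 7 below, and in TN-783 against lean mice 11 of 11 were above 0. Earlier results of these data had already shown this list to be higher in DIO mice. Across mice, Per1 and the mean of the 11 genes had an r of deviations of 0.63 (permutation p = 0.0145, adjusted over 40 relations 0.194) and a rho of 0.64 (permutation p = 0.0148, adjusted p = 0.197), which did not pass. The list mean was 4.76, 4.72 and 4.49 (log2 CPM) in lean replicates 1 to 3 and 5.73, 5.45 and 5.15 in lean replicates 4 to 6, the same split of the lean mice as for Per1. Within groups r was 0.91 in lean, 0.72 in DIO vehicle and -0.16 in TN-783 mice, with 6 mice each and no test. It was 0.59 without the 2 farthest libraries and 0.48 adjusted for RIN. Sult1a1, the gene most like Per1, is 1 of the 11 genes.

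**Figure D5:**
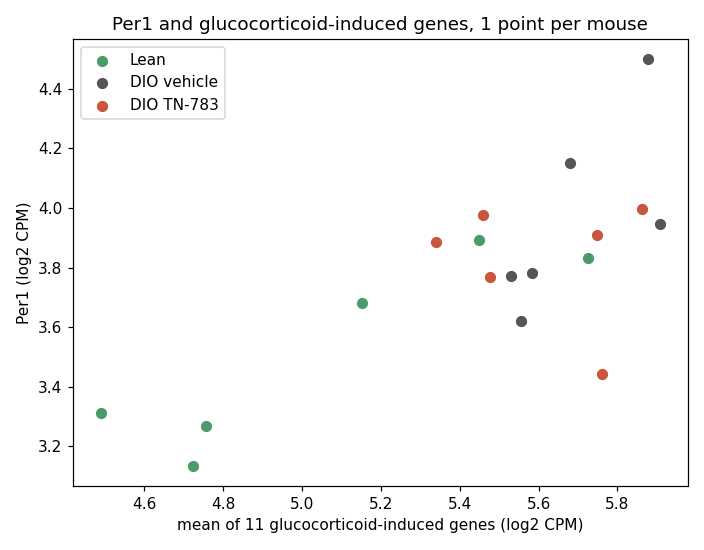
Per1 (vertical axis, log2 CPM) against the mean of 11 glucocorticoid-induced genes (horizontal axis, log2 CPM), with 1 point per mouse coloured by group. Lean replicates 1 to 3 lie at the lower left, with list means of 4.49 to 4.76, and lean replicates 4 to 6 lie between 5.15 and 5.73, beside the DIO mice.

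Between the deviations of Per1 and those of RIN, r was 0.63 (permutation p = 0.0152, adjusted over 10 genes 0.152). Spearman's rho was 0.70 (permutation p = 0.00765, adjusted p = 0.0765), and neither passed. It was 0.63 without the 2 farthest libraries, and 0.65 in lean, 0.76 in DIO vehicle and 0.29 in TN-783 mice. Lean replicates 1 to 3, the lowest for Per1, had RIN values of 9.5, 9.4 and 9.4, and lean replicates 4 to 6 had 9.7, 9.6 and 10.0. The part of RIN or of the glucocorticoid list in the difference of Per1 between DIO vehicle and lean mice was not tested beyond the fit with RIN given above. For the other 9 genes the adjusted p for RIN was at least 0.176.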

How the data were processed

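Per the labels, libraries were primed on the poly(A) tail, carried unique molecular identifiers and went through 18 PCR cycles. Tools in the submitters' processing notes are R 4.5.1, edgeR 4.6.2, Salmon 1.10.1 and STAR 2.7.9a, with GRCm39 as the build. Annotation, strand use and identifier collapsing are not given in the sources used here. Deposited by the authors were estimated counts per gene (12.0% of values not whole), log2 CPM, a scaling ratio per library and the RNA integrity score.

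Estimated counts were rounded, where the design had assumed whole counts. All 18 libraries were fitted with edgeR 4.0.16 (R 4.3.3): filterByExpr at a minimum count of 10, TMM scaling, the robust quasi-likelihood test, Benjamini-Hochberg adjustment over 11835 genes and a threshold of 0.05. CPM uses TMM-scaled library sizes, SE is the log2 difference over the square root of F, and the common biological coefficient of variation was 0.169. Per the labels each sample is biologically independent, so p-values measure the spread of such samples, and intervals from counting cover counting error only.

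Correlations used deviations from group means in log2 CPM (prior count 2), with two-sided p-values from 100000 permutations within groups (Python 3.11.15, numpy 2.4.6). Both tests were tried on simulated data with planted effects, which does not measure their power for these 10 genes. The 10 genes and all lists were chosen with earlier results of these data known. Named by rule were the 10 genes in every comparison, 9 other clock factors, called members of each other list or else the 2 with the smallest p per comparison, and the 3 genes most like each member. One result that this rule would name is not reported here. Immediate early and temperature-following genes are in the closing section. Alternatives were DESeq2 1.42.0, limma 3.58.1 (voom and trend), other scaling and filters, a replicate block, RNA integrity, the 2 groups alone and leaving out libraries. The first principal component as a covariate was added after the data were seen. Replicate numbers were not used as pairs.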

Additional observations from a re-analysis of the deposited data

Results flagged for a closer look

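Nr1d2 in DIO vehicle replicate 3 was at 157.88 CPM, far from the other 5 vehicle mice, which lay between 102 and 119 CPM. It was the only sample of the 10 genes to stand apart by Dixon's test at the 95% level in 30 groups of 6, where chance alone marks about 1 group in 20. Without this mouse the log2 difference of Nr1d2 was -0.06 for DIO vehicle against lean and 0.18 for TN-783 against DIO vehicle mice, and 0 of 10 genes were called either way by edgeR.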

How the results depend on the processing

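Across 30 alternative settings, 18 of which leave out 1 library, 0 of the 10 clock genes had an adjusted p under 0.05 in any comparison. The lowest adjusted p of any gene was 0.0887 (Per1 in DIO vehicle against lean mice, limma voom), and DESeq2 gave no adjusted p for 9 of the 30 combinations of gene and comparison, Per1 against lean among them. The log2 difference of Per1 in DIO vehicle against lean mice lay between 0.34 and 0.56 in 12 settings, and between 0.36 (without vehicle replicate 6) and 0.58 (without lean replicate 5) when 1 library was left out. Of 900 single values 853 kept their sign and 47 did not, and those 47 belonged to values of at most 0.10 in size; the cause was not tested.

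With RIN as a covariate, Cry2, Nr1d1 and Nr1d2 became 0.012, 0.030 and -0.019 in DIO vehicle against lean mice. Per2, Cry2 and Nr1d1 then became -0.014, -0.017 and -0.029 in TN-783 against DIO vehicle mice, and Per3 and Nr1d1 became 0.0065 and 0.0014 in TN-783 against lean mice. The other changes of sign among these 12 settings were in TN-783 against DIO vehicle mice. Without a filter Cry1 and Clock were 0.020 and 0.0096. Cry1 was 0.0016 with at least 1 CPM in 6 libraries and 0.026 by limma-trend, and Clock was 0.013 by limma voom. Without the vehicle libraries that held pituitary RNA (2 and 4), Cry1, Cry2 and Nr1d1 were 0.12, -0.030 and -0.051. With 1 library left out, values that crossed 0 ranged in DIO vehicle against lean mice from -0.14 to 0.0075 for Cry2 and from -0.056 to 0.081 for Nr1d2. In TN-783 against DIO vehicle mice they ranged from -0.076 to 0.046 for Clock, -0.11 to 0.12 for Cry1, -0.053 to 0.090 for Cry2, -0.15 to 0.011 for Dbp, -0.060 to 0.17 for Nr1d1 and -0.060 to 0.087 for Per2. In TN-783 against lean mice the ranges were -0.079 to 0.022 for Cry2, -0.16 to 0.0040 for Nr1d1 and -0.086 to 0.020 for Per3.

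The labels do not say whether same-numbered mice share more than the number. The r of their deviations ran from -0.13 to 0.38, from -0.29 to -0.04 and from -0.40 to 0.09 in the 3 pairs of groups. Of DIO vehicle mice, 2 of 6 were most like the lean mouse of their own number, and a shared factor was not tested. With the replicate number as a block, 0 of 10 genes were called in each comparison, and Per1 in DIO vehicle against lean mice was 0.48 (SE 0.19, edgeR adjusted p = 0.482). At 12 to 54 counts per library for Per1, Per2 and Nr1d1, depth limits what these libraries can show for those genes.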

Other observations

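Activity-induced immediate early genes were a list of 12 tested genes, of which edgeR called 0 in each comparison, with 4, 1 and 2 of 12 at an unadjusted p under 0.05, against 10.9%, 2.61% and 8.16% of all tested genes. In DIO vehicle against lean mice 3 of the 4 were higher and 1 was lower, Junb, named after its values were seen (-0.43, SE 0.20, edgeR adjusted p = 0.446). Over the whole list 8 of 12 genes were above 0 and 4 below in that comparison. The mean of Fos was lower, at 8.81 ± 3.34 CPM in lean and 6.43 ± 2.24 in DIO vehicle mice (SD, n = 6). Egr1, a transcription factor gene induced by neuronal activity, was at 32.7 ± 5.55 CPM in lean, 49.7 ± 11.3 in DIO vehicle and 50.4 ± 6.50 in TN-783 mice (SD, n = 6). Its log2 difference from lean mice was 0.59 (SE 0.14, edgeR adjusted p = 0.207) in DIO vehicle and 0.62 (SE 0.14, edgeR adjusted p = 0.406) in TN-783 mice. Egr3 differed by 0.82 (SE 0.30, edgeR adjusted p = 0.358) in DIO vehicle against lean mice. In TN-783 against DIO vehicle mice Btg2 differed by -0.74 (SE 0.32) and Nr4a3 by -0.46 (SE 0.25), both with an edgeR adjusted p of 1, and Junb by -0.46 (SE 0.20, edgeR adjusted p = 0.611) in TN-783 against lean mice. Clock was the gene with the highest r to the mean of this list, 0.54 (permutation p = 0.00943, adjusted over 40 relations 0.189), with rho at 0.61 (permutation p = 0.0106, adjusted p = 0.197).

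Genes that follow body temperature were a second list, of which edgeR called 0 of 12 in each comparison, with 7, 0 and 2 of 12 at an unadjusted p under 0.05, against the same shares. In DIO vehicle against lean mice 2 of the 7 were higher and 5 were lower. The heat-shock genes Hsph1 and Hsp90aa1 differed by -0.37 (SE 0.11, edgeR adjusted p = 0.264) and -0.33 (SE 0.12, edgeR adjusted p = 0.345) in DIO vehicle against lean mice. The 2 higher ones, named after their values were seen, were Rbm3 (0.50, SE 0.19, edgeR adjusted p = 0.371), which cold induces, and Creld2 (0.47, SE 0.22, edgeR adjusted p = 0.457). Over the whole list 3 of 12 genes were above 0 and 9 below. Cirbp did not rise with Rbm3, at 110 ± 9.65 CPM in lean, 104 ± 20.2 in DIO vehicle and 104 ± 19.6 in TN-783 mice (SD, n = 6). For Hsph1 and Hsp90aa1 the log2 differences were -0.22 (SE 0.11) and -0.28 (SE 0.11) in TN-783 against lean mice, both with an edgeR adjusted p of 0.611. In TN-783 against DIO vehicle mice the smallest p-values were those of Creld2 (-0.35, SE 0.22) and Hsph1 (0.15, SE 0.11), both with an edgeR adjusted p of 1.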
